A study of Mus musculus with 6 samples.

Results

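The non-receptor tyrosine kinases of the Src family, with Btk and Syk, were followed in 6 samples of colon tumor tissue from mice. The genes were Src, Fyn, Yes1, Lck, Lyn, Fgr, Blk, Btk and Syk, and all array probes whose gene name in the scanner output was one of these symbols were taken. They were 9 of 37074 gene names and 17 of 56605 gene probes. Tumors had been induced in male C57BL/6 mice, 6 to 8 weeks old at purchase, with azoxymethane (AOM, 10 μg/g), a carcinogen, and 2% dextran sulfate sodium (DSS), which inflames the colon, in the drinking water for 5 days. The RG@M-γ-CD group (3 samples, labelled Rgnanomedicine) came from mice that received 30 μg/g by mouth of regorafenib (RG) held in mannose-modified γ-cyclodextrin, which carried 10 μg/g RG, and the PBS group (3 samples) from mice that received phosphate-buffered saline. Both groups carried AOM and DSS tumors and no untreated colon was analysed here. Treatment lasted 21 days and was followed by 14 days of observation before the colons were taken. RG is an inhibitor of several kinases, and the comparison asks how the transcripts of these tyrosine kinases stood in tumor-bearing colon after the treatment.

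Src family kinases are attached to the inner face of the cell membrane and are held inactive by an intramolecular clamp that Csk sets and that phosphatases such as CD45 release. Src, Fyn and Yes1 are made in most cell types, epithelium included, where they act at integrin adhesions and growth factor receptors. Lck serves the T cell receptor, Blk the B cell receptor, and Lyn and Fgr serve Fc receptors, integrins and cytokine receptors of myeloid cells, with Lyn also a regulator of B cells. In leukocytes the Src family kinases phosphorylate paired tyrosines, the ITAMs, in receptor chains. Syk docks on these ITAMs in B cells and myeloid cells, and Btk, a Tec family kinase, passes the B cell receptor signal on to phospholipase C-γ2.

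Levels are given as log2 of the background-corrected spot intensity minus the 75th percentile over that array's gene probes. They compare arrays for 1 probe, and the level of one probe says nothing of the level of another. On each array 49.6% to 55.2% of gene probes passed the scanner software's mark for a signal well above background, and no gene spot was saturated. All arrays were on 1 slide and correlated pairwise at r between 0.942 and 0.992 across the genes tested, which are not independent replicates. RG@M-γ-CD replicates 1 and 2 were the pair least alike, and RG@M-γ-CD replicate 1 was more like each PBS array than like the other RG@M-γ-CD arrays. PBS replicate 1 correlated at r = 0.981 and 0.983 with PBS replicates 2 and 3. With RG@M-γ-CD replicates 2 and 3 it correlated less, at r = 0.972 and 0.977. In a clustering display of the study, array 8 (PBS replicate 1) stands with arrays 6 and 7 (RG@M-γ-CD replicates 2 and 3), and array 5 (RG@M-γ-CD replicate 1) with arrays 10 and 11 (PBS replicates 2 and 3). That display puts the labels of arrays 5 and 8 in doubt, and every difference given as labelled rests on them. Results are given as labelled, then for arrays 6, 7 and 8 against arrays 5, 10 and 11, and then without either replicate 1 array.

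All 8 kinase genes that could be tested had a lower mean in the RG@M-γ-CD group, and for none of them did the difference pass the adjusted threshold. The median log2 difference was -0.25 over the 8 kinases and -0.01 over all 19090 genes tested, of which 52.8% were lower. In this fit no kinase reached an unadjusted p of 0.05, and each adjusted p was 1 (limma, Benjamini-Hochberg over all genes tested). No gene at all passed the adjusted threshold of 0.05, while 419 genes (2.19%) had an unadjusted p below 0.05. Lck, Lyn, Fgr, Btk and Syk, which are best known from leukocytes, had a median difference of -0.49, against -0.03 for Src, Fyn and Yes1. The -0.49 is the value of Btk. Btk was at -0.04 without PBS replicate 1 and at 0.53 with arrays grouped as in the clustering display. Of the others in that set, Syk was at -0.05, and Lck, Lyn and Fgr were at -0.53, -0.34 and -0.58. The groups overlapped for every kinase except Lyn, 1 of 8, whose treated arrays were all lower than the controls, as they were for 2.19% of all genes. In bulk tissue, fewer cells of a type and less RNA per cell cannot be told apart.

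**Figure D1:**
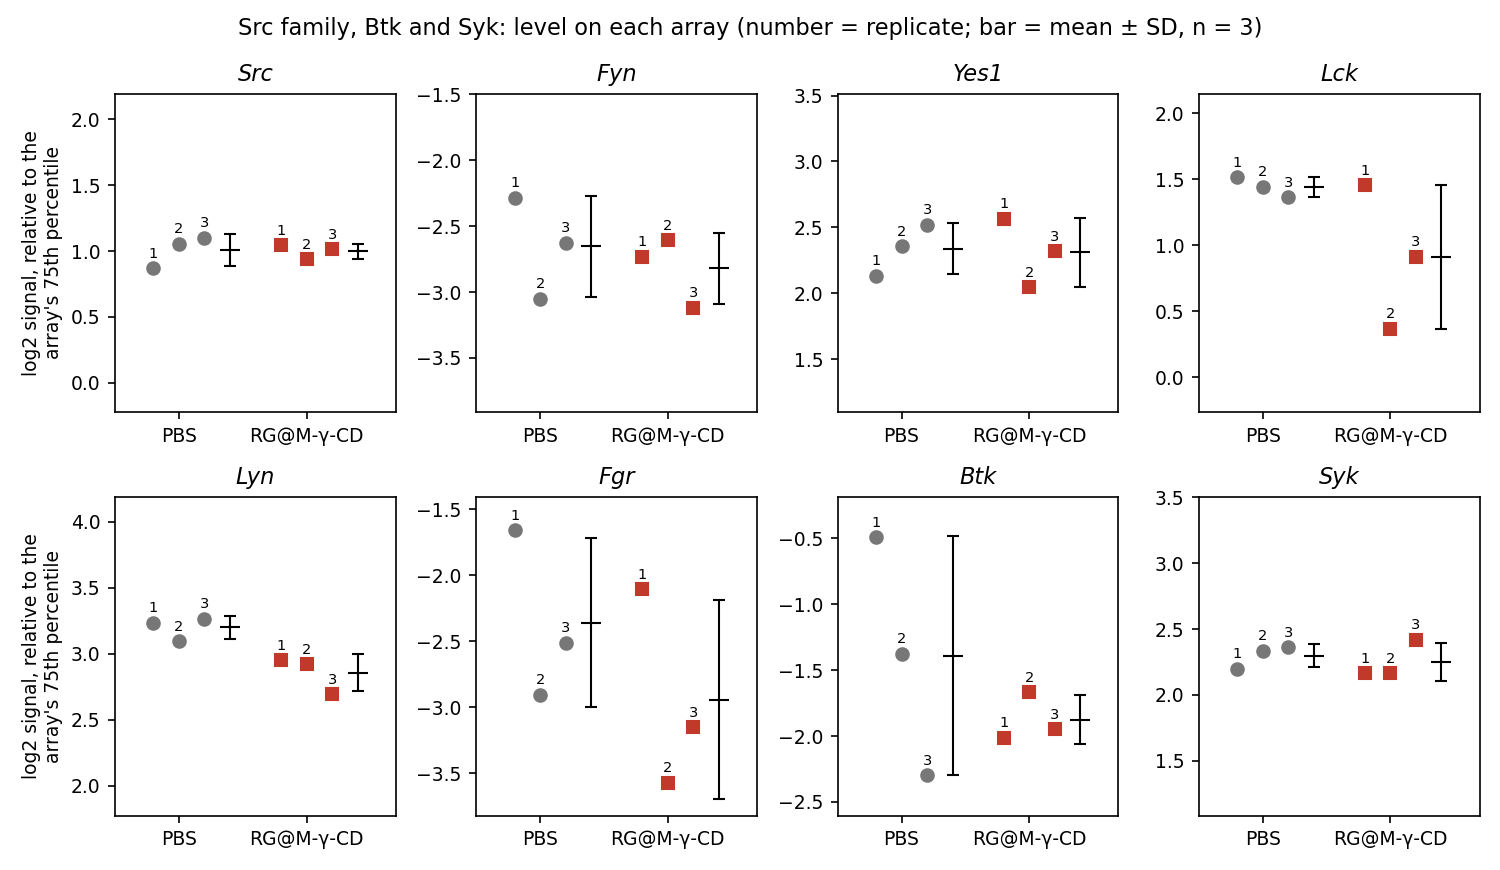
Level of each tested kinase gene on the 6 arrays, as log2 signal relative to the 75th percentile of the array, with PBS as grey circles, RG@M-γ-CD as red squares, the replicate number above each point and the mean ± SD (n = 3) as a bar. All panels span the same number of log2 units, and Lyn is the gene whose groups do not overlap, with RG@M-γ-CD arrays between 2.70 and 2.95 and PBS arrays between 3.10 and 3.27.

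Src, the founding member of the family and a kinase of focal adhesions, was read by 1 probe well above background on all arrays (A_52_P600547, mm9 chr2:157297223-157297282, plus strand, from base 3535 of transcript NM_009271). Its level was 1.04, 0.94 and 1.01 in RG@M-γ-CD replicates 1 to 3, and 0.87, 1.06 and 1.102 in the PBS replicates. The RG@M-γ-CD values lay within the PBS range. The difference was -0.01 (SE 0.15, limma, unadjusted p = 0.934), and its 95% interval, -0.37 to 0.34, leaves room for a change of that size either way.

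Yes1, the closest relative of Src, spread more widely than Src and also showed no clear difference (A_55_P2486689, chr5:32989296-32989355, plus strand). RG@M-γ-CD arrays read 2.57, 2.05 and 2.32, and PBS arrays read 2.13, 2.36 and 2.52. The highest and the lowest value were both RG@M-γ-CD arrays, and the difference was -0.03 (SE 0.20, 95% interval -0.51 to 0.45).

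Fyn, which acts at the T cell receptor and at adhesions, gave a weaker signal, still well above background on all arrays (A_66_P138915, chr10:39284572-39284631, plus strand). Its RG@M-γ-CD values were -2.73, -2.61 and -3.12, and its PBS values -2.29, -3.05 and -2.63. The groups overlapped almost fully, with a difference of -0.17 (SE 0.25, 95% interval -0.77 to 0.44).

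Lck, the kinase that starts T cell receptor signaling, differed mainly through 2 arrays (A_55_P2155504, chr4:129225614-129225673, minus strand). The PBS arrays stood close together at 1.52, 1.44 and 1.36, while the RG@M-γ-CD arrays read 1.45, 0.37 and 0.91. RG@M-γ-CD replicate 1 lay among the PBS arrays and the others were below all of them. The difference was -0.53 (SE 0.28, 95% interval -1.21 to 0.15), or 69.3% of the PBS level, with an unadjusted p of 0.107 (limma). Leaving out RG@M-γ-CD replicate 1 gave -0.80 (adjusted p = 0.189, limma), and leaving out RG@M-γ-CD replicate 2 gave -0.26.

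Lyn, the kinase of B cells and myeloid cells that both starts and restrains receptor signals, was the only kinase gene with separate groups as labelled (A_55_P2723944, chr4:3718130-3718189, plus strand). RG@M-γ-CD arrays read 2.95, 2.92 and 2.70, and PBS arrays read 3.24, 3.10 and 3.27. All 3 treated arrays were below all 3 PBS arrays, and the difference was -0.34 (SE 0.15, 95% interval -0.71 to 0.03), or 78.8% of the PBS level. The unadjusted p was 0.0635 (limma). Its difference ranged from -0.40 to -0.26 when any 1 array was left out. With arrays grouped as in the clustering display, the Lyn difference was -0.15 and the sides overlapped. Without either replicate 1 array it was -0.37, and the treated arrays were again below the PBS arrays.

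Fgr, a kinase of neutrophils and monocytes, had the largest mean difference and the widest spread with it (A_55_P2910661, chr4:132557111-132557169, plus strand). RG@M-γ-CD arrays read -2.10, -3.57 and -3.15, and PBS arrays read -1.66, -2.91 and -2.51. In both groups replicate 1 was the highest array, and the groups overlapped. The difference was -0.58 (SE 0.47, 95% interval -1.71 to 0.54). It was -1.0 without RG@M-γ-CD replicate 1 (adjusted p = 0.373, limma), -0.27 without RG@M-γ-CD replicate 2 and -0.23 without PBS replicate 1.

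Btk, which joins the B cell receptor to phospholipase C-γ2 and is also made in myeloid cells, depended on 1 control array (A_55_P2158498, chrX:131076995-131077054, minus strand). RG@M-γ-CD arrays stood together at -2.01, -1.67 and -1.95, and PBS arrays were spread over -0.49, -1.38 and -2.30. PBS replicate 1 was the highest of the 6 and PBS replicate 3 the lowest. The difference was -0.49 (SE 0.44, 95% interval -1.54 to 0.57), it was -0.04 without PBS replicate 1, and it was -0.94 without PBS replicate 3 (unadjusted p = 0.0288, adjusted p = 1, limma).

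Syk, the kinase that docks on phosphorylated ITAMs, was among the steadiest (A_55_P1962946, chr13:52744088-52744147, plus strand). RG@M-γ-CD arrays read 2.17, 2.17 and 2.42, and PBS arrays read 2.20, 2.34 and 2.36. The groups overlapped, and the difference was -0.05 (SE 0.15, 95% interval -0.42 to 0.32). A second probe of the same transcript, 2.81 kb upstream, gave -0.07 (A_66_P138936).

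**Figure D2:**
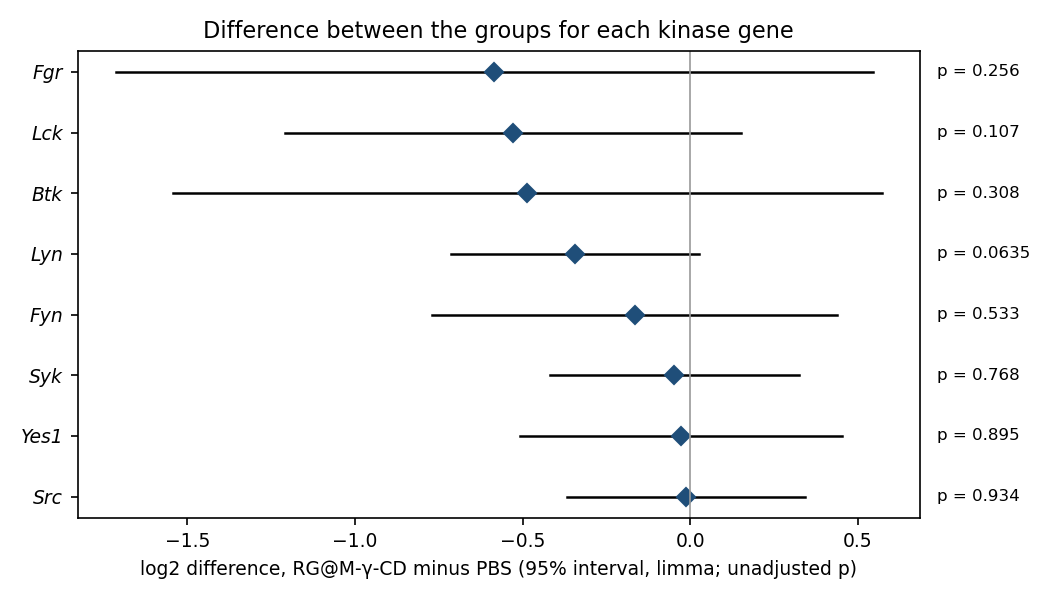
Log2 difference between RG@M-γ-CD and PBS for each tested kinase gene (diamond) with its 95% interval (line) and unadjusted limma p. All 8 diamonds are left of 0 and every interval includes 0, from Fgr at -0.58 to Src at -0.01.

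Blk, the Src family kinase of B cells, stayed near background on all 6 arrays, so it was not tested and has no fold. Its values were -6.90, -5.56 and -6.53 in the RG@M-γ-CD group and -4.96, -6.27 and -6.85 in the PBS group. The probe lies in a stretch of the kinase region that the family shares, as does the second probe of Src, and the second probe of Lck overlaps that stretch in part. The 3 sequences are shown because the probes that read this stretch were all too dim to be tested here, with capitals in the Src and Blk lines for the bases shared by these lines and capitals in the Lck line for bases it shares with Src.
Src A_51_P426214: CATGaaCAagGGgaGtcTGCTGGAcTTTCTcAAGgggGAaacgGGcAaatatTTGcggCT
Blk A_52_P15405: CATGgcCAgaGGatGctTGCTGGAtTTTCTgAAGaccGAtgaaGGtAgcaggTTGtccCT
Lck A_55_P2506985: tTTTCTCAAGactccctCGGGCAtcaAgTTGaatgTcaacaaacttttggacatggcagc
The Src and Blk probes share 34 of 60 bases (56.7%) without a gap, and the Lck probe shares 20 of the 36 bases it overlaps with Src (55.6%). In mm9 the Src probe runs over chr2:157293336-157294267 on the plus strand and the Blk probe over chr14:63997333-63998470 on the minus strand, each far wider than its 60 bases, so both cross a splice junction. The Lck probe lies at chr4:129229196-129229255 on the minus strand.

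These 3 probes and 4 others gave little signal and were not tested as labelled. The second Src probe was well above background on 1 PBS array and the second Btk probe (A_55_P1953819) likewise, while the second Lck probe was so on 2 arrays of each group. Of the 17 probes, 10 were tested as labelled and 2 were well above background on no array, that of Blk and a Syk probe of the cDNA AK049207 (A_55_P2172867). The second Fgr probe (A_66_P132927), 0.897 kb from the first, was well above background on 1 RG@M-γ-CD and 2 PBS arrays. Fgr differences therefore rest on 1 probe.

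Another probe of Syk varied far more between arrays than the gene's main probe (A_55_P2718663, chr13:52708988-52709047, plus strand). It is 35.1 kb upstream of the main probe, and the files assign it to an Ensembl transcript, ENSMUST00000150672, and not to the RefSeq mRNA. Its values were -3.47, -0.83 and -2.17 in the RG@M-γ-CD group and -0.77, -3.08 and -2.58 in the PBS group. The highest arrays were RG@M-γ-CD replicate 2 and PBS replicate 1, the groups overlapped fully, and the labelled difference was -0.02 (SE 0.83). A Lyn probe of an Ensembl transcript behaved alike (A_65_P04064, ENSMUST00000137943, chr4:3740184-3740243, plus strand). It read -4.70, -2.79 and -3.39 in the RG@M-γ-CD group and -2.70, -4.73 and -3.55 in the PBS group.

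**Figure D3:**
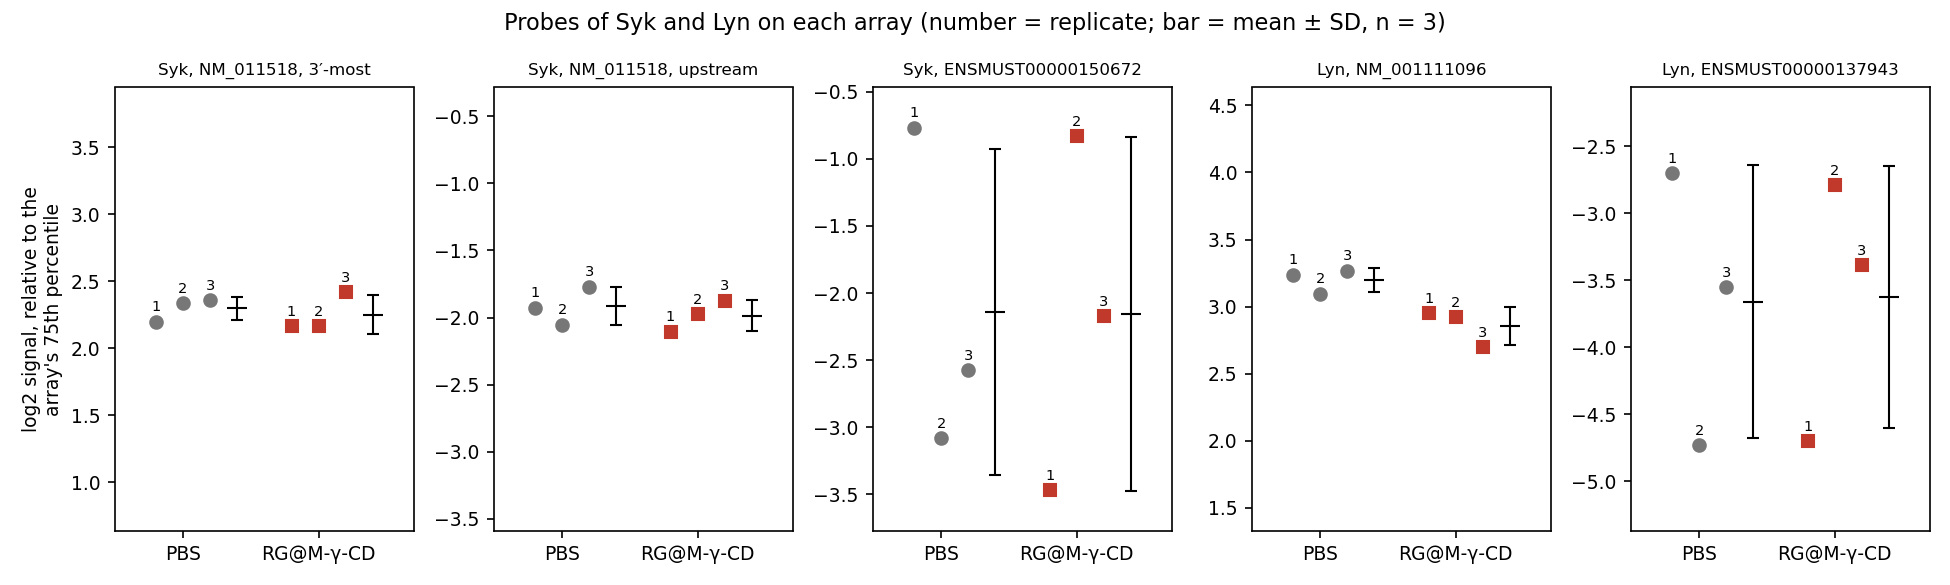
Level of 3 Syk probes and 2 Lyn probes on the 6 arrays, as log2 signal relative to the 75th percentile of the array, with the same symbols as the plot of kinase levels. The probes of RefSeq mRNAs are tight, while those of the Ensembl transcripts spread over more than 2 log2 units, with PBS replicate 1 and RG@M-γ-CD replicate 2 at the top.

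Grouped as in the clustering display, arrays 6, 7 and 8 minus arrays 5, 10 and 11, the kinases were split. Their median difference was -0.14, against -0.12 over 19298 genes, with 6 lower and 2 higher where 63.8% of all genes were lower. Fyn (0.13) and Btk (0.53) were the higher genes, so both changed direction with the grouping. Src (-0.13) and Yes1 (-0.32) had all arrays of the first side below the other, 2 of 8 kinases, where 18.4% of all genes did. The sides were drawn from these same arrays, so a p for their difference is no test, and the 5 genes (0.0259%) past the adjusted threshold and the 16.5% with an unadjusted p below 0.05 are given as a description. No kinase was among the 5 genes.

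The Ensembl transcript probes of Syk and Lyn were higher on arrays 6, 7 and 8, the Syk probe by 1.79 and the Lyn probe by 1.37. They were 2 of the 11 kinase probes tested to have all arrays of the first side above the other, where 8.48% of all probes did. Among probes named by an Ensembl transcript alone the share was 16.5%, and among probes of RefSeq transcripts it was 5.57%. These classes of probe were compared after the values had been seen. The Lyn probe was well above background on 2 arrays of each labelled group and was not tested as labelled. It entered this comparison only because arrays 6, 7 and 8, where it was high, all passed the filter. Its separation is thus partly set by the filter. The shares given for all probes and for the probe classes have the same limit, as any probe could enter through 1 side alone.

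Without either replicate 1 array, 7 kinases were lower, where 60.8% of all genes were, and Btk was level (0.03). For 5 of the 8 both treated arrays were below both PBS arrays, which held for 30% of all genes. For Lyn this follows from its separation as labelled. The median was -0.18 over the kinases and -0.09 over 19575 genes. Lck had the smallest unadjusted p (difference -0.76, unadjusted p = 0.0299, adjusted p = 0.336, limma), 1 kinase of 8 where 5.81% of all genes were lower at that threshold. With RG@M-γ-CD replicate 1 alone left out, 202 genes passed the adjusted threshold, and none of the kinases was among them.

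The other kinases of these families pointed mostly the same way. Of 11 related kinases, 10 were tested, 8 were lower and 2 higher, with a median of -0.36, where 52.8% of all genes were lower. Of the 10, 2 were lower at an unadjusted p below 0.05, as 1.33% of all genes were. The list median was -0.22 for arrays 6, 7 and 8 against the others, and -0.47 without either replicate 1 array. Over all genes it was -0.12 and -0.09. None passed the adjusted threshold. Ptk6, an epithelial relative of Src, read -0.23, 0.32 and -0.10 in the RG@M-γ-CD group and 1.03, 0.37 and 0.93 in the PBS group. All treated arrays lay below the PBS arrays, as they did for 2.19% of all genes (difference -0.78, SE 0.25, unadjusted p = 0.0179, limma). The Ptk6 difference was 0.06 for arrays 6, 7 and 8 against the others, and -0.54 without either replicate 1 array. Matk, which phosphorylates the Src family tail as Csk does, differed by 0.02, and Bmx, the Tec kinase of endothelium and neutrophils, by 0.58 with overlapping groups.

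Receptors and the ITAM chains that Lck, Lyn and Syk act on were lower in mean throughout. All 18 tested of 20 were lower, with a median of -0.54, and 3 had an unadjusted p below 0.05, where 1.33% of all genes were lower at that threshold. Of all genes, 52.8% were lower and 2.19% had all treated arrays below the PBS arrays. The list median was -0.53 for arrays 6, 7 and 8 against the others, where that of all genes was -0.12. Without either replicate 1 array it was -0.76, against -0.09. Cd3g, an ITAM chain of the T cell receptor, read -1.68, -2.10 and -2.59 in the RG@M-γ-CD group and -1.54, -1.47 and -1.45 in the PBS group, without overlap (unadjusted p = 0.0385, limma). Itgal, the α chain of the integrin LFA-1, differed by -0.64. Fcgr1 and Fcgr4, activating Fc receptors of macrophages and neutrophils, had the largest differences at -0.80 and -0.77. Adjusted p was 1 for each of these genes.

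Most genes listed as brakes on these kinases had a lower mean as labelled, and none passed a test. Of 17 tested phosphatases, inhibitory receptors, ubiquitin ligases and docking proteins, 14 were lower and 3 higher, where 52.8% of all genes were lower. None had an unadjusted p below 0.05, and the median was -0.42. For arrays 6, 7 and 8 against the others the median was -0.05. Cd72, an inhibitory receptor of B cells, had the largest negative difference (-0.85). Ptprc, the phosphatase CD45, was counted in this list although it also primes Lck and Lyn. It differed by -0.64, with PBS replicate 1 as the highest array. Pag1, the membrane anchor for Csk, differed by 0.16, and Dok1, a docking protein, by 0.08.

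Adapters and effectors were mixed. Of 20 tested, 15 were lower and 5 higher, with a median of -0.22, and 3 had an unadjusted p below 0.05, where 52.8% of all genes were lower and 1.33% were lower at that threshold. Lat, the adapter that Zap70 phosphorylates in T cells, read -2.66, -3.10 and -3.21 in the RG@M-γ-CD group and -1.85, -2.32 and -2.60 in the PBS group. These did not overlap, with a difference of -0.74 (SE 0.26, unadjusted p = 0.0259, limma). Lat2, its relative in B cells and myeloid cells (-0.52), and Pik3cd, the leukocyte catalytic subunit of PI 3-kinase (-0.59), also had separate groups, as 2.19% of all genes did in that direction. For arrays 6, 7 and 8 against the others, Lat was at -0.20, Lat2 at -0.19 and Pik3cd at -0.0054. The list median was -0.19 there, against -0.12 over all genes. Without either replicate 1 array it was -0.30, against -0.09. Pik3ap1, an adapter for that kinase, had the largest difference at -1.24 with an SE of 0.73. It was well above background on no more than 4 arrays. RG@M-γ-CD replicates 2 and 3 read -5.76 and -4.59, so the size of this difference is uncertain. Prkcd, a protein kinase C isoform, differed by 0.12 and Vav3, a guanine nucleotide exchange factor, by 0.10.

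Substrates of Src at adhesions were level. Of 12 tested, 5 were lower and 7 higher, none with an unadjusted p below 0.05, with a median of 0.04. The median was -0.12 for arrays 6, 7 and 8 against the others, as over all genes, and -0.07 without either replicate 1 array. Efs and Pxn, scaffold proteins of adhesions, had the largest positive differences at 0.19 and 0.16. Arhgap35, a GTPase-activating protein (-0.13), and Ctnnd1, the p120 catenin (-0.05), had the largest negative ones.

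**Figure D4:**
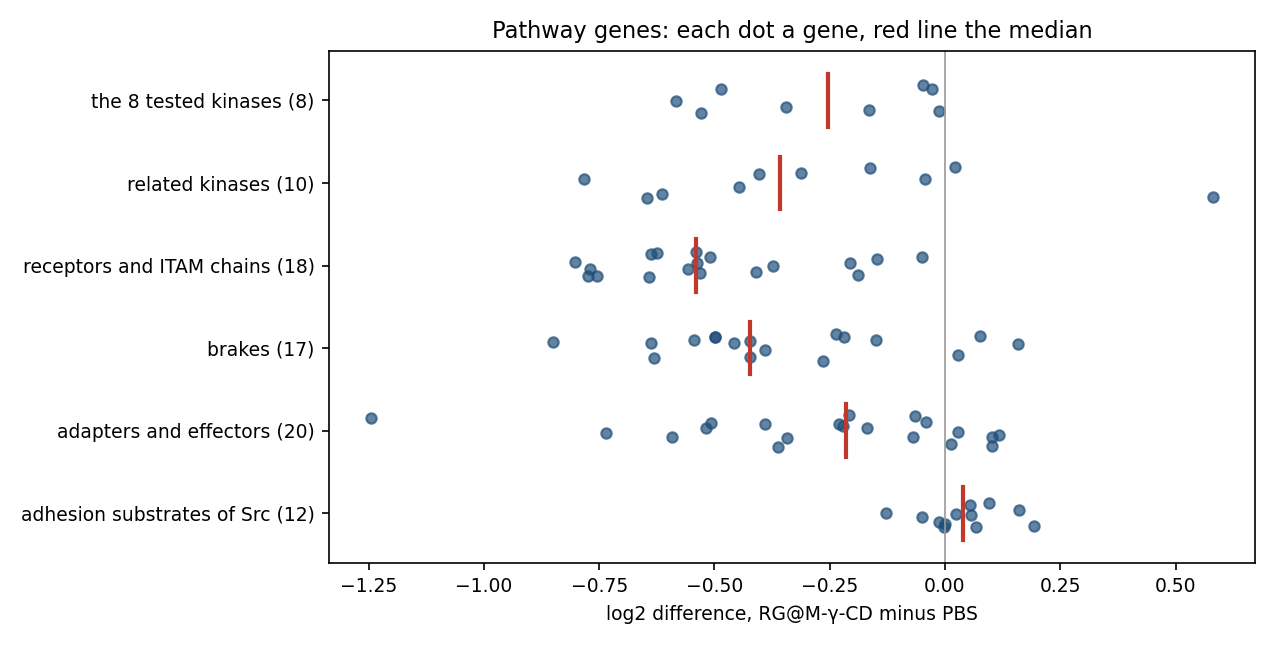
Log2 difference between RG@M-γ-CD and PBS for the 8 tested kinases and for the tested genes of 5 pathway lists, 1 dot per gene, with the median of each list as a red line. Medians lie at -0.54 for receptors and ITAM chains and at 0.04 for adhesion substrates. The largest negative dot, among adapters and effectors, is Pik3ap1, which was well above background on no more than 4 arrays.

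Markers of leukocytes and of smooth muscle differed alongside the kinases. All 8 tested of 9 T cell markers were lower (median -0.64), all 7 tested of 9 B cell markers (-0.53), all 10 tested of 11 macrophage and monocyte markers (-0.50), and 6 of 7 neutrophil markers (-1.11). Of all genes, 52.8% were lower. Among the neutrophil markers, Cxcr2 and Mmp8 were well above background on no more than 4 arrays. Retnlg, whose value is the labelled median, was so on no more than 5, and the size of the neutrophil medians is therefore uncertain. All 7 smooth muscle markers were higher (0.95), as were all 6 endothelial ones (0.29), and the 8 epithelial markers had a median of 0.02. The mean level of the smooth muscle markers was 2.70, 5.45 and 5.79 on the RG@M-γ-CD arrays and 3.85, 3.49 and 3.83 on the PBS arrays, so that RG@M-γ-CD replicate 1 had the lowest level and the others the highest. T cell markers averaged -1.02, -1.67 and -1.71 on the RG@M-γ-CD arrays and -0.84, -0.72 and -1.11 on the PBS arrays. Cd8a and Cd163 were not tested for lack of signal, nor were Cd79a and Pax5 of the B cell list. The direction of the B cell markers turned with the grouping, with a median of 1.11 for arrays 6, 7 and 8 minus the others and 0.52 without either replicate 1 array, as that of Btk did. Over the same settings the T cell median was -0.57 and -0.87, the macrophage median -0.59 and -0.74, the neutrophil median -1.73 and -2.25 and the smooth muscle median 1.71 and 2.02. Plasma cell markers had a median of 0.06 (2 of 5 lower) and mast cell markers of -0.04 (3 of 5 tested lower). Of 7 exocrine pancreas genes 2 were tested, with a mean of 3.69 on PBS replicate 2 and 0.97 to 1.53 on the other arrays. No leukocyte marker passed the adjusted threshold, some markers also stand in the pathway lists, and the part of cell composition in the kinase differences was not tested.

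The kinases did not all follow the same markers over the 6 arrays, though Lck and Fgr were alike in this. Btk correlated with the mean of the B cell markers at r = 0.93, and with the macrophage markers at r = 0.14. The B cell markers ranged from 0.68 on PBS replicate 1 to -2.73 on PBS replicate 3, the arrays that were also highest and lowest for Btk. Lck correlated with the T cell markers at r = 0.88, the neutrophil markers at r = 0.91, the macrophage markers at r = 0.91 and the smooth muscle markers at r = -0.83. Fgr correlated with the neutrophil markers at r = 0.89 and the macrophage markers at r = 0.86. With the epithelial markers, Syk correlated at r = 0.83, Src at r = 0.88, Yes1 at r = 0.61 and Fyn at r = -0.83. Only some of the pairs of kinase and marker list are given. Each r is over 6 arrays that share their scaling with both measures, and is given as a description.

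**Figure D5:**
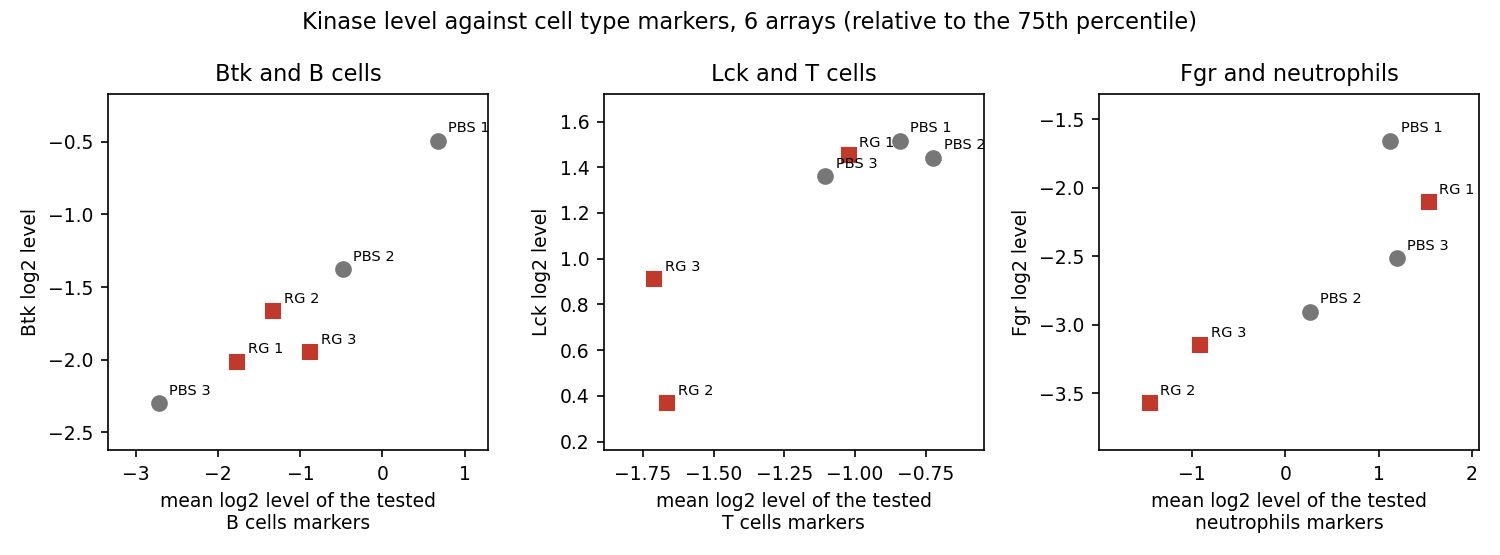
Level of Btk, Lck and Fgr against the mean level of the tested B cell, T cell and neutrophil markers, 1 point per array, both as log2 relative to the 75th percentile, with PBS as grey circles and RG@M-γ-CD as red squares. Btk orders the arrays much as the B cell markers do, with PBS replicate 1 highest and PBS replicate 3 lowest, while for Lck and Fgr RG@M-γ-CD replicates 2 and 3 are the lowest arrays.

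The kinases did not move as one group. Over the 6 arrays, Lck and Fgr correlated at r = 0.83 and Src and Yes1 at r = 0.85, while Src and Btk stood at r = -0.80. The genes most like each kinase were found among 19087 genes by Pearson r over the 6 arrays. Syk was most like BI455857, Smc4 and Mki67 (r = 0.98 to 0.99), of which Smc4, a condensin subunit, and Mki67 are made in dividing cells. Lyn was most like 2010109N18Rik, Ifit3b and Tifa (each r = 0.98), where Ifit3b is induced by interferon and Tifa is an adapter of the NF-κB pathway. Lck was most like Rnf145, Bcl3 and Syt8 (r of at least 0.991), Fgr most like Impg2, Abcc1 and Abcc5, Src most like Srp9, Lamb1 and Gm14440, and Yes1 most like Ptprg, Atp2c1 and a transcript named by its Ensembl number. Fyn was most like Tcirg1, and Btk was like A530032D15Rik and Lpxn, a paxillin relative of leukocytes. These genes were picked for their r, which is therefore no test.

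Promoters from RefSeq (GRCm38.p6) were listed for 7 of the 9 genes, 250 bases before to 50 after the start, with Lyn and Blk not among them. The core of the PU.1 motif, GAGGAA, searched on both strands, was found in 5 of the 9 promoters listed for these genes, at Src, Lck, Fgr, Btk and Syk. It was found in 28.3% of all 32851 promoters in the table. A match is a description of letters and not a site.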

How the data were processed

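The authors hybridized RNA of each sample to a one-color Agilent SurePrint mouse array and deposited the scanner output of Feature Extraction 10.7.1.1, which holds the processed intensity of each spot (background subtracted, no normalization between arrays) and other 0 or 1 marks for outlier and dim spots. Probe coordinates are mm9 per the file headers. They also deposited a table of log2 values per probe, used as an alternative. Groups are those of the labels, which a clustering display of the study puts in doubt for arrays 5 and 8. Control and outlier spots were left out, and the log2 intensity was centered on the 75th percentile of the gene probes of its array. A probe was kept where every array of a group, or of both, read it well above background, and a gene was its brightest such probe. Changes were fitted with limma 3.58.1 in R 4.3.3 (lmFit, eBayes, Benjamini-Hochberg, threshold 0.05). On simulated data of 19087 genes for this comparison, 78% of 200 genes changed by 2 on the log2 scale were called, 100% of them with the right sign. There were 12 false calls. The simulated noise was independent between genes and arrays. The planted change was larger than any kinase difference seen (at most -0.58, Fgr), so the simulation does not show how often changes of that size would be found. The small number of arrays limits the precision. The kinases and gene lists were chosen with earlier results of these data known. Named are all 9 kinases, list genes with an unadjusted p below 0.05, the 2 largest rises and falls of each list and the 3 genes most like each kinase, of which those known only by a position are left unnamed. The samples of a group came from separate mice, per the paper. Some results that the rule would name are not reported here. Alternatives are in the closing section.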

Additional observations from a re-analysis of the deposited data

How the results depend on the processing

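None of the 8 kinases passed the adjusted threshold as labelled or under any of 19 alternatives, and the kinases' median stayed below 0 in all of them, from -0.46 with the slide row as a block to -0.11 without PBS replicate 1. Lck, Lyn and Fgr kept their direction throughout, and Btk, Fyn, Src, Syk and Yes1 did not. With arrays 6, 7 and 8 minus arrays 5, 10 and 11, Btk was at 0.53 and Fyn at 0.13, and 5 genes of all passed the adjusted threshold. Without both replicate 1 arrays Btk was at 0.031. Src was at 0.0062 under quantile normalization and 0.0065 in the authors' value table. With the slide row as a block, which equals the value within slide row 1 (3 RG@M-γ-CD arrays and PBS replicate 1), Src was at 0.13, Syk at 0.052, Yes1 at 0.18, Fyn at -0.53, Fgr at -1.29 and Btk at -1.38 (unadjusted p = 0.0178, adjusted p = 0.997, limma). Slide row 2 held PBS arrays only, so row and group are partly confounded. The cause was not tested.

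Leaving out 1 array at a time, the number of genes past the adjusted threshold ranged from 0 to 202, the latter without RG@M-γ-CD replicate 1. The median of the kinases ranged from -0.38 to -0.11, Src from -0.082 to 0.033, Yes1 from -0.16 to 0.10, Fyn from -0.36 to 0.019, Btk from -0.94 to -0.04 and Syk from -0.13 to -0.0051.

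The replicate number did not pair the arrays (correlations of same-numbered deviations of -0.25, -0.23 and 0.14). With the replicate block 0 genes passed the adjusted threshold, 464 had an unadjusted p below 0.05 against 419 without it, and the kinases' median was -0.25. Fgr had an unadjusted p of 0.0271 there (adjusted p = 1, limma). With the methods' t-test 45 genes passed its thresholds of fold change and unadjusted p, none of them a kinase, Lyn had an unadjusted p of 0.0231, and 0 genes passed after Benjamini-Hochberg adjustment.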
